A study of Homo sapiens with 7 samples.

Results

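MSRB3 and HMGA2 are neighbouring genes on the long arm of chromosome 12, and the data described here are the chromatin loops that ended on their promoters. A loop is a pair of different anchors, the stretches of DNA that contact each other, on 1 chromosome, and a loop belonged to a gene when an anchor overlapped a window of 500 bp centred on any annotated start site of that gene. Of 163530 loops in Ishikawa cells, 118 met this rule, 87 for MSRB3 and 33 for HMGA2, with 2 loops counted for both genes because they joined them. None of 42027 loops in T-47D and none of 149226 loops in LNCaP met it. The 2 genes, of 20163 protein-coding genes, were selected on these same lists, on the number of MSRB3 partners in Ishikawa and the density of loops around it, so the counts are a description and no test was made of them.

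Loops came from H3K27ac HiChIP, which captures contacts of DNA wrapped on histone H3 acetylated at lysine 27, a mark of active promoters and enhancers. The 3 lines were Ishikawa, from an endometrial adenocarcinoma (4 samples), T-47D, from a ductal carcinoma of the breast (1 sample), and LNCaP, from a carcinoma of the prostate (2 samples), each an established line grown in RPMI medium with serum. Before estrogen inductions, the study's methods place cells in hormone-depleted medium with charcoal-stripped serum. Ishikawa cells received the vehicle DMSO (2 samples) or 10 nM of the estrogen E2 (2 samples), both for 1 h. The treatment of T-47D and LNCaP is not given in the labels, nor is it stated whether their HiChIP cells were hormone-depleted. Samples were combined into 1 list per line, so no value has a replicate error and DMSO could not be compared with E2. Ishikawa chromatin was cut with DpnII and the other lines with MboI, which read the same site, GATC, and the sonicator, read length and depth followed the same split, so none of these can be told apart from the line. Each loop carries a count of read pairs, and 3 was the lowest count kept in a list. Loops above the authors' false discovery limit were also removed, so a value of 0 means that no loop was listed, whether for few read pairs, for that limit or for want of an anchor. The Ishikawa list consists of 4 separately sorted parts, whose samples are unknown. Loops held 1040329 read pairs for Ishikawa, 351260 for T-47D and 1805322 for LNCaP. Marker genes followed the labels. PAX8, a Müllerian transcription factor, had 162, 0 and 0 read pairs in promoter loops (Ishikawa, T-47D and LNCaP, in this order), GATA3, a luminal breast factor, had 7, 1063 and 0, and HOXB13, a prostate factor, had 0, 0 and 3243. The other markers ran the same way, with 27, 0 and 0 for SOX17, 3, 2557 and 4 for TRPS1, and 6, 0 and 2936 for KLK3.

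MSRB3 encodes methionine sulfoxide reductase B3, an enzyme of the endoplasmic reticulum and mitochondria that returns oxidised methionine to its reduced form. HMGA2 encodes an architectural chromatin protein that binds the minor groove of AT-rich DNA through AT-hooks. It is abundant in the embryo, low in most adult tissues, re-expressed in many tumours, and its mRNA is a known target of the let-7 microRNAs.

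MSRB3 (ENSG00000174099.12_12, plus strand, chr12:65672423-65885210 on GRCh37) spans 213 kb and has 15 annotated start sites for 17 transcripts. HMGA2 (ENSG00000149948.14_11, plus strand, chr12:66218240-66360071) spans 142 kb and has 6 start sites for 11 transcripts. The starts lie 546 kb apart, with 333 kb between the end of MSRB3 and the start of HMGA2 and no other protein-coding gene in between. The 210 bases just upstream of the first MSRB3 start, chr12:65672213-65672422 on the plus strand, are shown because most MSRB3 transcripts begin here whereas most of the loops did not, as described further on. They come from the RefSeq promoter table (GRCh38.p14) and matched GRCh37 at 1 position. Capitals mark the 16 CpG dinucleotides.

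MSRB3 upstream sequence: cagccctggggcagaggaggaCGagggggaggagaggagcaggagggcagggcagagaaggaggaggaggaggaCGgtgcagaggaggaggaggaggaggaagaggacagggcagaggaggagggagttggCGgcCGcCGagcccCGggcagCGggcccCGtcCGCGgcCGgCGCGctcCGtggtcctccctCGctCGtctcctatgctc

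This stretch was 72.4% G and C. The whole promoter entry of 300 bases had 27 CpG, and 28.2% of 35116 RefSeq promoter entries had as many or more, against a median of 14. It held no GATC, the site at which the chromatin was cut, whereas 41.7% of the entries held at least 1.

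In Ishikawa, MSRB3 had 718 read pairs in its 87 loops (95% Poisson interval 666 to 772, counting error only) and HMGA2 had 344 in its 33 loops (309 to 382). MSRB3 was joined to 52 distal anchors, which hold no promoter of a protein-coding gene, and HMGA2 to 31. Among all genes, a linked distal anchor was found for 52.5% in Ishikawa, and the genes that had any had a median of 3. MSRB3 ranked 3rd of 20163 genes by this count, level with NAALADL2 and below MECOM (55) and XXYLT1 (53), while PLD1, OPA1, GRID1 and DLGAP2 followed at 47. HMGA2 ranked 20th. By read pairs the genes ranked 22nd and 129th. Among the 676 genes of chromosome 12 up to 73 Mb, where Ishikawa loops were dense, MSRB3 ranked 1st by distal anchors and 3rd by read pairs, and HMGA2 6th and 43rd. Relative to that surrounding, the number of distal partners of HMGA2 was high, but its read pairs were exceeded by those of 42 genes.

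Support for single loops varied widely. For MSRB3, 25 loops had the minimum of 3 read pairs and 26 had 10 or more, with a median of 7. For HMGA2, 4 loops had 3 and 8 had 10 or more, with a median of 6. The median of all Ishikawa loops, and of those on chromosome 12 up to 73 Mb, was 4. Loops present in 2 or more of the 4 parts made up 50.6% for MSRB3 (44 loops) and 57.6% for HMGA2 (19 loops), compared with 33.8% of all Ishikawa loops and 39.6% of those in the dense stretch. The loops were also long. Their median span was 248 kb for MSRB3 (8.72 to 899) and 168 kb for HMGA2 (13.0 to 523), compared with 37.0 kb over the list and 59.5 kb over the dense stretch.

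The 4 parts did not weight the genes alike. They held 268859, 90130, 239253 and 442087 read pairs in loops, and no part listed a count under 3. Read pairs were scaled to 1000000 read pairs in the loops of a list or part, and this value is called the scaled count. Over the 4 parts in turn, MSRB3 had scaled counts of 1030, 754, 322 and 672, from 276, 68, 77 and 297 read pairs. HMGA2 had 260, 366, 456 and 299, from 70, 33, 109 and 132 read pairs. The third part was thus lowest for MSRB3 and highest for HMGA2, and the first part was highest for MSRB3 and lowest for HMGA2. The sample behind each part is unknown, so these values could not be set against E2.

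The 15 start sites of MSRB3 fell in 4 anchors of very unequal use. The first anchor, chr12:65665589-65673870 (8.28 kb), holds 11 start sites of 13 transcripts, 11 of them called protein-coding, and it had 11 partners and 105 read pairs. The second anchor, chr12:65683054-65704951, lies inside the gene and holds a single start site, 26.5 kb downstream of the first, of a retained-intron transcript (MSRB3-215). It had 52 partners and 481 read pairs, the most of any MSRB3 anchor. The third anchor, chr12:65719381-65722338, holds the starts of 2 protein-coding transcripts and had 2 partners and 10 read pairs. The fourth anchor, chr12:65725691-65739921, holds the start of a transcript without a defined coding sequence (MSRB3-204), and it had 26 partners and 191 read pairs. Loops between these anchors count for each of them, so their counts add to more than the gene's.

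Anchor width moved with these counts. The second anchor was 21.9 kb wide, wider than 99.8% of Ishikawa anchors, the fourth was 14.2 kb and the third 2.96 kb, against a median of 5.10 kb over the list. Per kb of anchor, the read pairs numbered 12.7, 22.0, 3.38 and 13.4 from the first to the fourth. The second anchor still led on this scale, and the first and the fourth were close to each other. The part of anchor width in the counts was not tested further. If only start sites of coding transcripts were used, a choice made after the data were seen, MSRB3 had 115 read pairs and 12 linked distal anchors, of which 9 were among the 52 and 2 were its own anchors, the second and the fourth, which then count as distal. With the gene record's 5′ end as the only start site it had 105 read pairs and 11 distal anchors, 8 of them among the 52 and 2 its own anchors. The count of 52 distal anchors, by which MSRB3 was ranked, therefore rests mostly on the second and the fourth anchor. These hold no start of a transcript called coding. Genes were not ranked again under these settings.

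**Figure D1:**
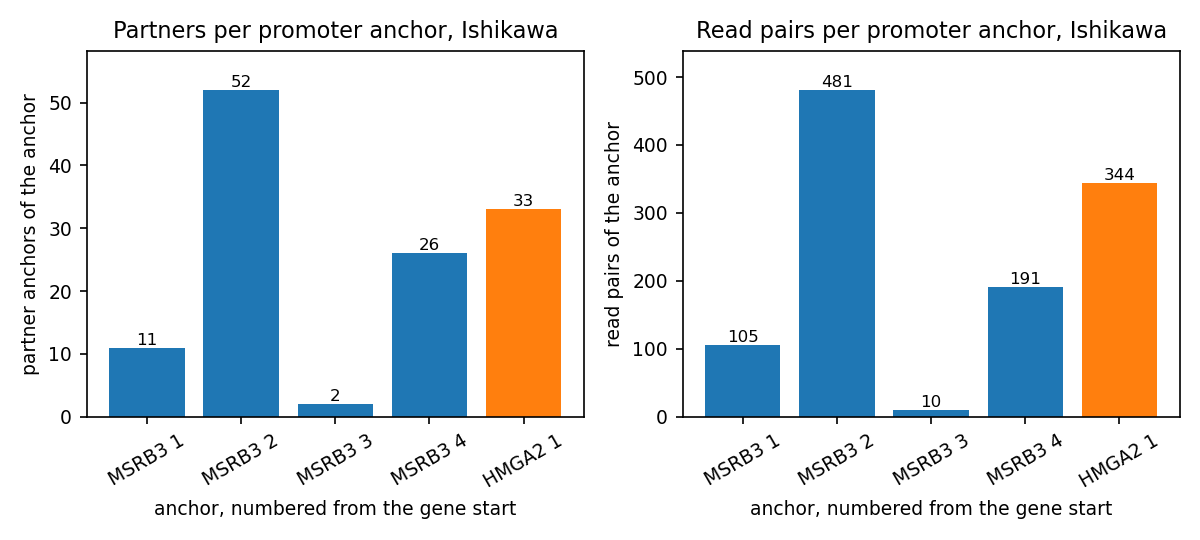
Partner anchors (left, number) and read pairs (right, number) of each anchor over a start site in Ishikawa, with the 4 MSRB3 anchors numbered from the gene's start in blue and the HMGA2 anchor in orange. The second MSRB3 anchor has 52 partners and 481 read pairs, more than the HMGA2 anchor with 33 and 344, and the first, where most transcripts start, has 11 and 105.

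HMGA2 had 1 promoter anchor, chr12:66207515-66226049, with all 6 of its start sites. It was 18.5 kb wide, wider than 99.5% of Ishikawa anchors, and gave 18.6 read pairs per kb, between the first and the second MSRB3 anchor. The same anchor holds the start sites of RPSAP52, a transcribed pseudogene on the opposite strand that overlaps the start of HMGA2, and of ENSG00000277945, a long noncoding RNA. Contacts of HMGA2 could not be told apart from contacts of these transcripts.

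The right end of the second MSRB3 anchor, which carried most of the MSRB3 read pairs, and both ends of the distal anchor with the most read pairs to both genes (chr12:66097897-66111891, ranked by the lower of its counts) are shown to make plain how an anchor is bounded. Each line is the plus strand of GRCh37, and capitals mark the GATC at which the fragment was cut. The end of the MSRB3 anchor is chr12:65704930-65704973, and the left and right ends of the distal anchor are chr12:66097874-66097917 and chr12:66111870-66111913.

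MSRB3 second anchor, right end: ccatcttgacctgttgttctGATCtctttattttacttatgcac
Shared distal anchor, left end: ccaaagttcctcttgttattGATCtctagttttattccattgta
Shared distal anchor, right end: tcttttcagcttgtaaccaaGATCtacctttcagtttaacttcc

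All 12864 distinct anchor edges on chromosome 12 in the Ishikawa list fell on GATC, as did all 2056 in T-47D and all 4410 in LNCaP, so coordinates are those of GRCh37.

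MSRB3 reached mostly downstream, toward HMGA2. Of its 52 distal anchors, 30 lay beyond the gene's end and took 54.3% of the read pairs with distal anchors (317), 10 lay within the gene (158 read pairs, 27.1%) and 12 lay upstream (109, 18.7%). The strongest, chr12:65751584-65763886, covers an MSRB3 exon 85.3 kb from the start and had 45 read pairs, of which the 4 parts gave 15, 6, 11 and 13. Next came an intergenic anchor 11.4 kb upstream, chr12:65657599-65664427, with 33 read pairs (14, 3, 3 and 13 by part). An anchor between the genes, chr12:66055651-66072412, 392 kb downstream, also had 33 (10, 0, 10 and 13). The last of these had no loop in the second part of the list, which held the fewest read pairs.

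The other MSRB3 partners among the 10 strongest distal anchors had fewer read pairs. An anchor 432 kb downstream, chr12:66097897-66111891, had 28 read pairs, and one in an MSRB3 intron, chr12:65866842-65877062, had 27. An anchor 21.7 kb upstream, chr12:65647744-65653745, had 26, all from the first part and the fourth (14 and 12). Beyond the gene, chr12:65923097-65932936 had 25, chr12:65994795-66003312 had 21, chr12:65903148-65910037 had 17, and chr12:66474908-66483940, 807 kb from the start, had 16. The farthest linked anchor lay 878 kb upstream and had 3. MSRB3 also contacted promoters of other genes, namely HMGA2 (30 read pairs), LEMD3 (18), which encodes a protein of the inner nuclear membrane, and 1 anchor shared by LLPH and TMBIM4 (17).

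HMGA2 reached mostly upstream, toward MSRB3. Of its 31 distal anchors, 22 lay upstream and took 81.5% of the read pairs with distal anchors (256), 5 lay within the gene (42 read pairs) and 4 lay beyond it (16). The strongest, chr12:66182943-66197873, lies 27.8 kb upstream within RPSAP52 and had 67 read pairs, 18, 6, 21 and 22 by part. It was followed by chr12:66097897-66111891 with 26 (10, 0, 8 and 8) and by chr12:66200164-66204971, 15.7 kb upstream, with 24 (8, 0, 8 and 8). The first of these was present in every part. The others were missing from the second, which held the fewest read pairs and listed no count under 3.

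Farther out, an anchor 46.0 kb upstream of HMGA2, chr12:66167984-66176592, had 23 read pairs (0, 7, 7 and 9 by part). Inside the gene, chr12:66226646-66232966, which covers an HMGA2 exon 11.6 kb from the start, had 22 (7, 5, 4 and 6). Still farther upstream, chr12:66112567-66117366 had 15, chr12:66133141-66137568 had 11, and chr12:65960944-65967516 and chr12:66045326-66052222 had 8 each. The remaining distal anchors had 3 to 7 read pairs each.

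**Figure D2:**
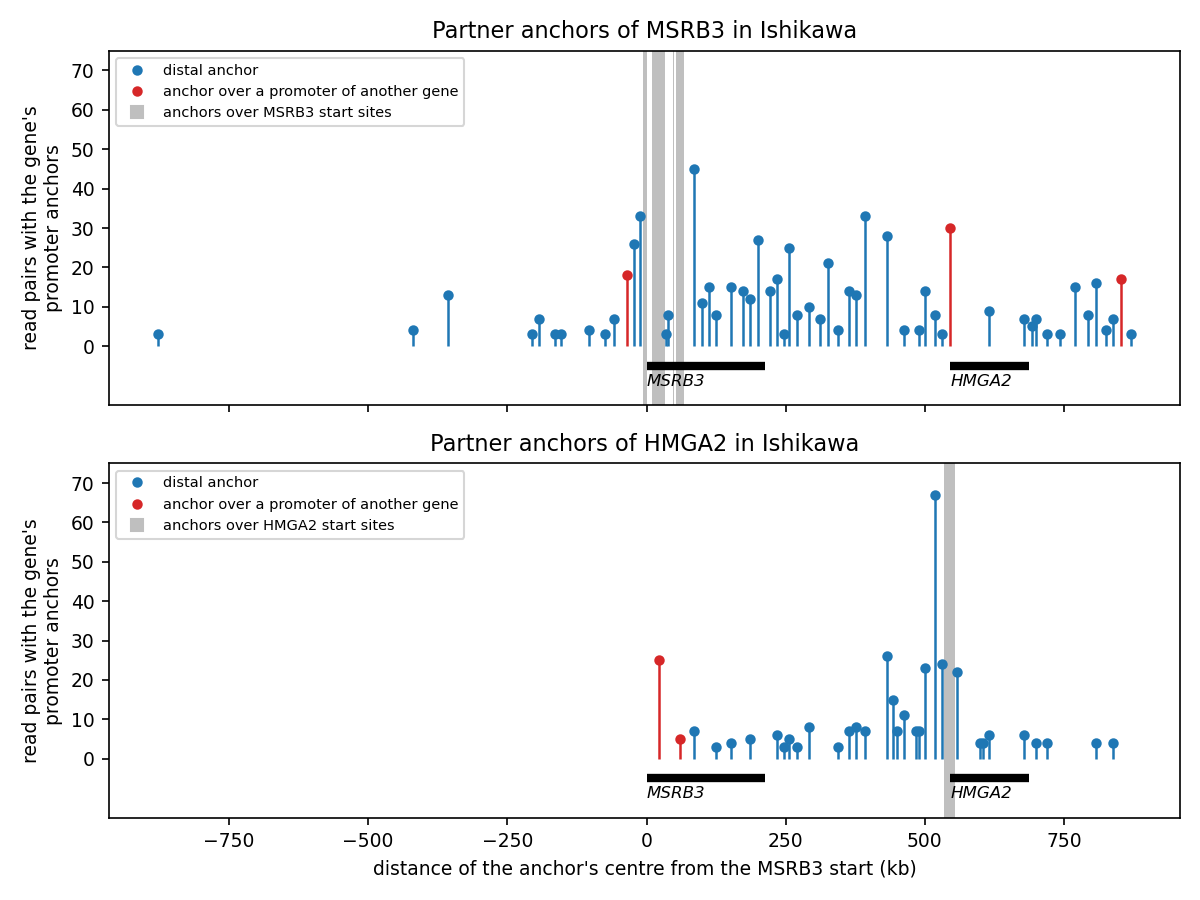
Read pairs (vertical axis) that join each partner anchor to the promoter anchors of MSRB3 (top) and HMGA2 (bottom) in Ishikawa, against the distance of the partner's centre from the MSRB3 start in kb. Blue marks distal anchors, red marks anchors over a promoter of another gene, grey bands are the gene's own promoter anchors and black bars are the genes. Partners of MSRB3 lie mostly to the right, with up to 45 read pairs, and those of HMGA2 mostly to the left of its promoter, with up to 67.

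The promoters were also joined to each other directly. A loop of 523 kb connected the second MSRB3 anchor to the HMGA2 anchor with 25 read pairs (95% Poisson interval 16.2 to 36.9), and all 4 parts contained it, with 4, 6, 7 and 8. It had the most read pairs of the 1522 Ishikawa loops with a span within 10% of its own, whose median was 3, and so also of the 266 on chromosome 12 up to 73 Mb. Both of its anchors were among the widest of the list, as given above. A second loop of 484 kb connected the fourth MSRB3 anchor to HMGA2 with 5 read pairs (1.62 to 11.7), all from the third part, and 156 of 1740 loops of like span had as many or more. No loop joined HMGA2 to the first MSRB3 anchor, where most MSRB3 transcripts start, or to the third.

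The genes shared 25 distal anchors, which is 48.1% of the MSRB3 anchors and 80.6% of the HMGA2 anchors, out of 58 linked to either. Of these, 15 lay between the genes, 4 within MSRB3, 2 within HMGA2, 4 beyond HMGA2 and 0 upstream of MSRB3. The 25 anchors had 317 read pairs with MSRB3 and 255 with HMGA2, with the MSRB3 count higher at 18, the HMGA2 count higher at 6 and equal counts at 1. The MSRB3 counts are summed over its 4 promoter anchors, whereas those of HMGA2 come from 1 anchor. The counts of the genes are therefore not like for like. Support was at least 5 read pairs with each gene at 13 anchors.

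Strong contact with one gene did not imply strong contact with the other. The anchor chr12:66097897-66111891 was close to even in summed counts, with 28 read pairs for MSRB3 and 26 for HMGA2. The 28 came from 3 loops to MSRB3 promoter anchors and the 26 from 1 loop. This anchor lies 432 kb from the MSRB3 start and 113 kb from that of HMGA2. The strongest HMGA2 partner, 27.8 kb from its start, had 67 read pairs with HMGA2 and 8 with MSRB3. The strongest MSRB3 partner had 45 with MSRB3 and 7 with HMGA2. At chr12:66167984-66176592 the counts were 14 for MSRB3 and 23 for HMGA2, and at chr12:66055651-66072412 they were 33 and 7.

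Among 14746 pairs of protein-coding genes that shared a distal anchor in Ishikawa but no promoter anchor, MSRB3 and HMGA2 shared the most. ERC1 and FBXL14 followed with 21, TMEM44 and XXYLT1 with 19, and the median was 1. With the 5′ end of each gene record as the only start site, MSRB3 and HMGA2 shared 6, of which 4 were among the 25 and 2 were anchors of MSRB3, and with loops in 2 or more parts they shared 9. In the whole interval, 322 of the 1081 possible pairs among its 47 Ishikawa anchors were joined (29.8%), and 84 of these loops ended on an anchor of MSRB3 or HMGA2. This share was not computed for other intervals.

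**Figure D3:**
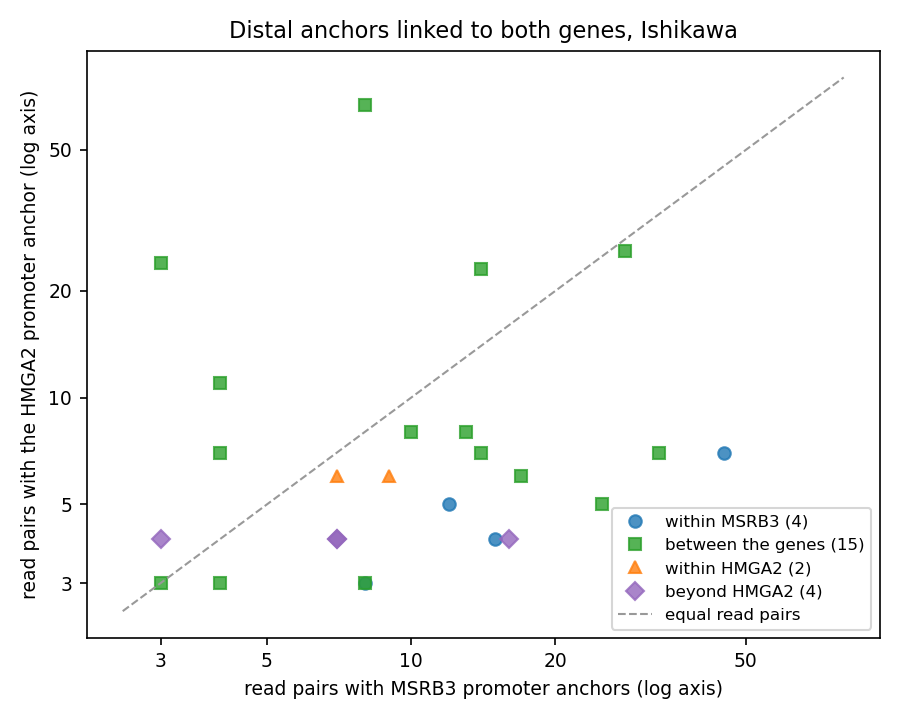
Read pairs of the 25 distal anchors linked to both genes in Ishikawa, with MSRB3 on the horizontal and HMGA2 on the vertical axis, both on log scales, and colour and shape giving the place of the anchor. The dashed line marks equal counts: 18 anchors lie below it, on the MSRB3 side, and 1 anchor with 28 and 26 read pairs lies close to it at high support. Some points coincide.

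In T-47D and LNCaP, neither gene had a loop. A linked distal anchor was found for 34.7% of genes in T-47D and 52.4% in LNCaP, so genes without one were common in both lists. The scaled count was 690 for MSRB3 and 331 for HMGA2 in Ishikawa. The minimum of 3 read pairs applies to each loop, so the folds given next bound listed contacts and not all contacts of a gene. Counting 0 as the floor of 3 read pairs per list, listed contacts of MSRB3 were at least 80.8-fold higher in Ishikawa than in T-47D and at least 415-fold higher than in LNCaP, and those of HMGA2 at least 38.7-fold and at least 199-fold. A difference of 4-fold or more in this direction was found for 12.4% of the 14165 genes with a promoter loop in Ishikawa or T-47D and for 24.6% of the 14877 in Ishikawa or LNCaP. Among genes of chromosome 12 up to 73 Mb it was found for 48% (269 of 560) and 54.4% (309 of 568), so in this stretch the direction was shared by about every other gene. These lists were used to select the genes, and nothing further is read from the comparison.

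The stretch in which both genes lie was itself dense in Ishikawa. Up to 73 Mb, a boundary set after the values had been seen, chromosome 12 carried 241 Ishikawa loops per Mb, against 46.4 over the rest of it, whereas the same densities were 18.4 and 16.8 in T-47D and 58.2 and 55.0 in LNCaP. It took 12.6% of all Ishikawa read pairs, 3.24% of those of T-47D and 2.87% of those of LNCaP. Scaled to the read pairs of this stretch alone, the folds were at least 20.8 against T-47D and 94.5 against LNCaP for MSRB3, and at least 9.95 and 45.3 for HMGA2. The number of copies of this stretch in each line was not measured here, and its part in the counts was not tested.

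**Figure D4:**
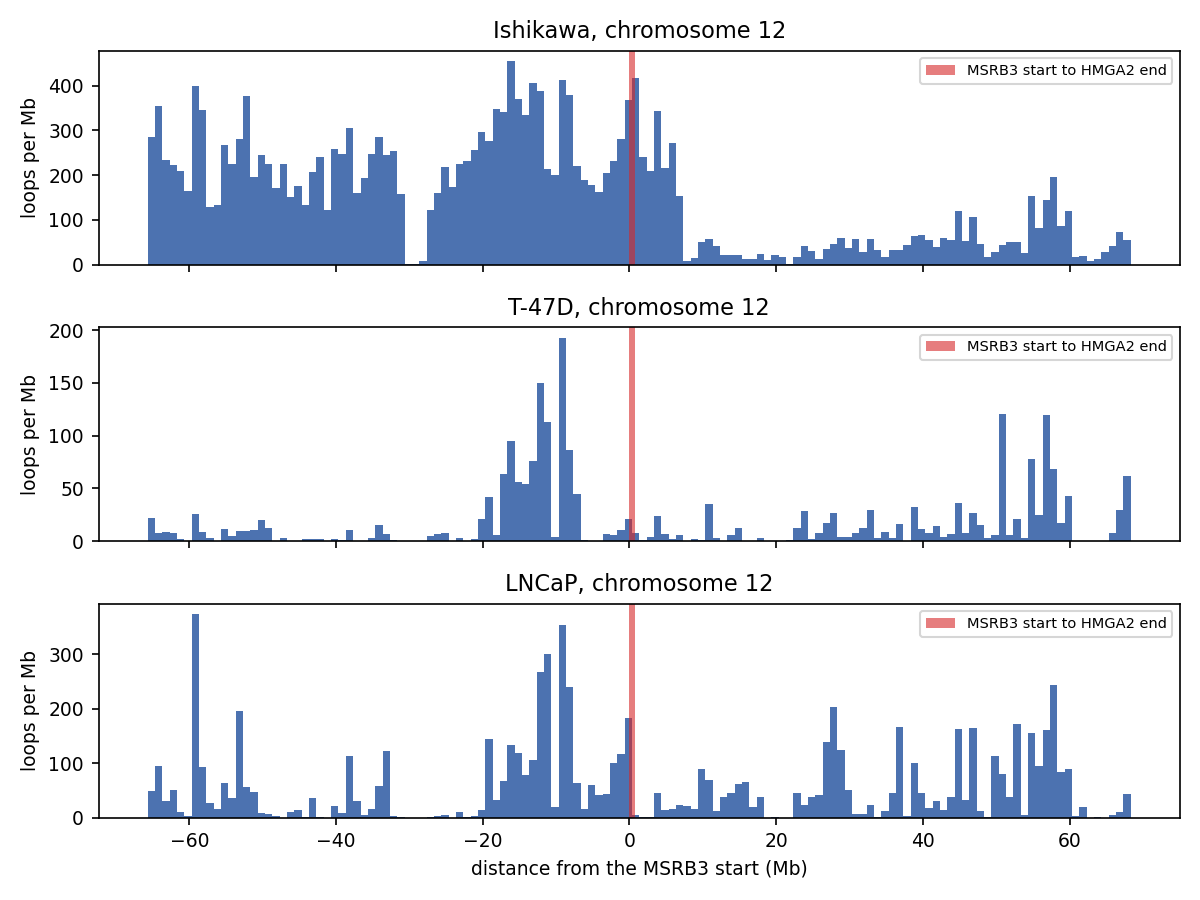
Loops per Mb along chromosome 12 in Ishikawa, T-47D and LNCaP (each panel with its own linear axis), against the distance from the MSRB3 start in Mb. The red band runs from the MSRB3 start to the HMGA2 end. In Ishikawa density falls from an average of 241 to 46.4 loops per Mb a few Mb to the right of the band, whereas the averages on either side are close to each other in T-47D (18.4 and 16.8) and in LNCaP (58.2 and 55.0).

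Anchors as well as loops were missing from this interval in the other lines. From the MSRB3 start to the HMGA2 end, 688 kb, Ishikawa had 47 anchors, T-47D 0 and LNCaP 1. The T-47D list had no anchor over 895 kb, from 44.5 kb upstream of the MSRB3 start to 305 kb downstream of the HMGA2 start. The 1 LNCaP anchor, chr12:65712499-65714723, lies in an MSRB3 intron away from any start window and had a single loop of 4 read pairs, 724 kb upstream into RASSF3. Around HMGA2 the LNCaP list had no anchor over 808 kb. Of the 52 distal anchors of MSRB3, 3 overlapped a T-47D anchor and 2 a LNCaP anchor, and of the 31 of HMGA2 none did in either list. Over all 76856 distal anchors of Ishikawa the shares were 4.48% for T-47D and 12.5% for LNCaP. Over those of chromosome 12 up to 73 Mb they were 3.57% and 10.8%, so few overlaps were common throughout. The share of MSRB3 with T-47D (5.77%) was not below these values. It rests on 3 anchors at the minimum of 3 read pairs each, 878, 205 and 870 kb from the MSRB3 start. All of them lie outside the interval from the MSRB3 start to the HMGA2 end. The share of MSRB3 with LNCaP (3.85%) and both shares of HMGA2 (0%) were below these values.

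Neighbouring genes were mixed in this respect. Of the 17 other protein-coding genes with a start between 1.17 Mb upstream of the MSRB3 start and 1.14 Mb beyond the HMGA2 end, 16 had a loop in Ishikawa or T-47D, and 5 were at least 4-fold higher in Ishikawa and 3 at least 4-fold lower, beside 12.4% and 39% of all genes and 48% higher in the dense stretch. Against LNCaP, 8 of 16 were higher and 3 lower, beside 24.6% and 36.6% of all genes and 54.4% higher in the dense stretch. The median fold was 2.44 against T-47D and 3.98 against LNCaP, with counts under 3 read pairs set to 3, beside medians of 3.77 and 5.21 over genes of chromosome 12 up to 73 Mb. The genes on either side of the interval had contacts in every line. In the same order of lines, LEMD3 had 7, 1 and 2 distal anchors. On the other side, LLPH had 20, 3 and 2, and TMBIM4, which encodes a Golgi protein that restrains cell death, had 20, 3 and 3.

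Some neighbours resembled MSRB3 and HMGA2 and others ran the other way. WIF1, a secreted Wnt inhibitor, had 8 distal anchors in Ishikawa and 0 in both other lists, and GRIP1, a scaffold protein of glutamate receptors, had 32, 0 and 0. RASSF3, a Ras-association gene upstream of them, had 14, 2 and 27, and its scaled count was 1350 in LNCaP against 240 in Ishikawa. IRAK3, a brake on interleukin-1 signalling, had 0 in every list. LLPH and TMBIM4, which share an anchor, each had 12 distal anchors in common with MSRB3 and 6 with HMGA2, while WIF1 shared 6 and LEMD3 5 with MSRB3 and neither shared any with HMGA2.

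**Figure D5:**
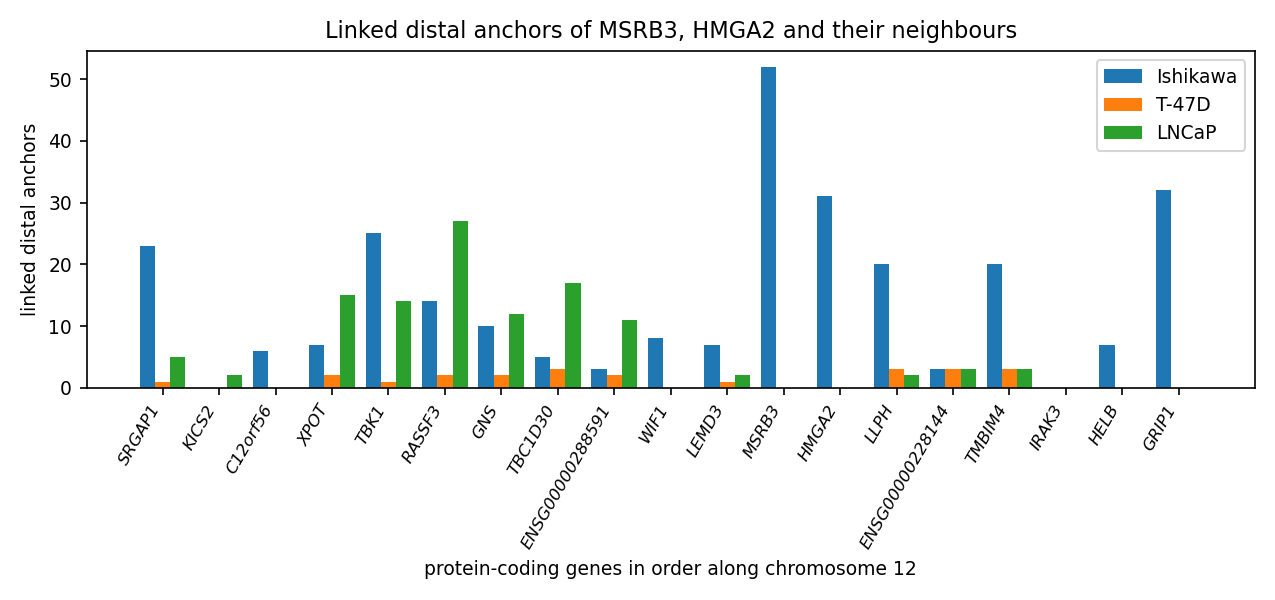
Number of linked distal anchors in Ishikawa (blue), T-47D (orange) and LNCaP (green) for the 19 protein-coding genes with a start site in this window around MSRB3 and HMGA2, in order along chromosome 12. MSRB3 (52) and HMGA2 (31) have bars in Ishikawa only, as do GRIP1 (32), WIF1 (8), HELB (7) and C12orf56 (6), whereas RASSF3 is highest in LNCaP (27).

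Genes related to the pair by family or pathway were compared by their scaled counts, given in the order Ishikawa, T-47D and LNCaP. HMGA1, the HMGA2 paralogue, had 2.88, 54.1 and 29.9, from 3, 19 and 54 read pairs. Its listed contacts were lowest in Ishikawa, where it had 1 loop at the minimum of 3 read pairs. Of the other methionine sulfoxide reductases, MSRA, which reduces the other stereoisomer of the oxidised residue, had 58.6, 0 and 0, MSRB1 had 78.8, 253 and 117, and MSRB2 had 12.5, 0 and 2.77. The thioredoxin system supplies electrons to these enzymes. Its cytosolic reductase TXNRD1 had 9.61, 0 and 215, and TXN2 and TXNRD2, the mitochondrial pair, were also highest in LNCaP at 95.8 and 160, whereas TXN was highest in T-47D at 122.

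In the let-7 axis, IGF2BP2, an RNA-binding protein placed downstream of HMGA2, had a scaled count of 235 in Ishikawa and 0 in both other lists. Its relative IGF2BP3 had 107, 0 and 8.86. LIN28B, which blocks let-7 maturation, had 14.4, 0 and 0, and DICER1, which cuts microRNA precursors, had 0, 125 and 244. Over all 16 related genes, 3 were at least 4-fold higher in Ishikawa than in T-47D (MSRA, IGF2BP2 and IGF2BP3) and 4 at least 4-fold lower, against 12.4% and 39% of all genes. Of 15 with a loop in Ishikawa or LNCaP, 6 were higher and 6 lower, against 24.6% and 36.6% of all genes. The median fold was 0.692 against T-47D and 1.74 against LNCaP, beside 0.368 and 0.574 over all genes.

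Genes with the most similar pattern were sought by the summed difference in log2(linked distal anchors + 1) over the 3 lists, which are 3 points only. For MSRB3 they were OPA1, GRID1 and DLGAP2, each with 47, 0 and 0 distal anchors and a summed difference of 0.143. For HMGA2 they were GRIP1 (32 anchors in Ishikawa, difference 0.0444), TMTC1 (29, 0.0931), both on chromosome 12, and CFAP46 (34, 0.129), all with 0 in the other lists. Loop density was described along chromosome 12 only. Whether OPA1, GRID1, DLGAP2 and CFAP46, which lie elsewhere, are also in stretches dense in Ishikawa was not tested.

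Because Ishikawa cells respond to estrogen, the anchors were searched for the estrogen response element, spelled GGTCANNNTGACC, the palindrome bound by the estrogen receptor. It was absent from 5 kb windows centred on the 58 distal anchors and present in 0.488% of windows on all 92121 Ishikawa anchors, and 10 kb windows held 1 match among the 58 (1.72%) against 0.866% of all windows. That match lies 4.59 kb from the centre of chr12:65778641-65788944, an anchor in an MSRB3 intron with 15 read pairs to MSRB3 and 0 to HMGA2. It is shown on the plus strand, chr12:65788361-65788403, with the element in capitals.

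MSRB3 intron match: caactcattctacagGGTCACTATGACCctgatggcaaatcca

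A core pattern of CTCF, a protein found at the base of many loops, was searched on both strands as CCNCNNGNNGGCNG and did not overlap the element above. It was found in 5.17% of the 5 kb windows on the 58 distal anchors (3 anchors) against 11.2% of all windows, and in 8.62% of 10 kb windows (5 anchors) against 19.2%. On the 5 promoter anchors of the genes the shares ran the other way, at 1 of 5 in 5 kb windows and 3 of 5 in 10 kb windows, though 5 anchors are few. For both motifs, the windows on all 92121 anchors mix promoter anchors with 76856 distal anchors. Shares over distal or promoter anchors alone were not computed, so neither set was compared with its own kind. The first MSRB3 anchor has a match 0.567 kb downstream of the gene's start. It lies 3.27 kb from the anchor's centre, so it counts in the 10 kb window only. The promoter anchor with the match in its 5 kb window is not identified here. Of the matches within 5 kb windows, 2 lay in anchors shared by the genes and are shown because these anchors had 28 and 25 read pairs with MSRB3. The first, at chr12:66106613-66106656, lies in the anchor with 28 read pairs to MSRB3 and 26 to HMGA2, and the capitals are the minus-strand pattern read on the plus strand. The second, at chr12:65930205-65930248, lies in an anchor with 25 read pairs to MSRB3 and 5 to HMGA2. A match describes letters in the reference and not binding.

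First shared anchor match: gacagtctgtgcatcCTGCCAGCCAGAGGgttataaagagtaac
Second shared anchor match: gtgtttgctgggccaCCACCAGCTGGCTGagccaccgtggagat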

How the data were processed

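Per the labels and the study's methods, H3K27ac HiChIP reads of 7 samples were aligned to hg19 with HiC-Pro, and the authors called loops with hichipper and removed loops under 3 reads or above their false discovery limit (versions are not given in the sources used here). They deposited 1 list per cell line, in which the counts are read pairs per loop, unscaled. Ishikawa rows of the same anchor pair were summed over the 4 sorted parts of that list. Loops were linked to genes through windows of 500 bp on every start site of 20163 protein-coding genes (GENCODE lifted to GRCh37). Distal anchors hold no such window. Coordinates count from 1.

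MSRB3 and HMGA2, the lists of related genes and the searches were chosen with earlier results of these data known. Named were all promoter anchors, the 10 strongest partners, all protein-coding neighbours, 16 related genes and the 3 most similar genes. With 1 pooled list per line no test was possible. Intervals are exact Poisson (95%) and cover counting error only, since 1 pooled list gives no replicate error. They treat read pairs as independent, and the handling of PCR duplicates is not given in the sources used here. Scaled counts are per 1000000 read pairs in loops, and counts under 3 were set to 3 in folds. Alternatives were minima of 5 and 10 read pairs, loops in 2 or more parts, a 2 kb window, 1 start site per gene, spans of 20 kb to 1 Mb and scaling by chromosome 12. Start sites of coding transcripts only were added after the data were seen. The linking was tested on simulated loops, and the planted links of 159 of 159 genes on chromosome 12 were found. Python 3.11.15, pandas 2.3.3, scipy 1.17.1 and matplotlib 3.10.9 were used.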

Additional observations from a re-analysis of the deposited data

How the results depend on the processing

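The 0 linked distal anchors of both genes in T-47D and LNCaP stayed 0 with the 2 kb window, and the other alternatives could only remove loops there. The Ishikawa counts of 52 (MSRB3), 31 (HMGA2) and 25 (both) became 34, 20 and 12 with loops of 5 or more read pairs, 18, 7 and 2 with 10 or more, and 31, 18 and 9 with loops in 2 or more parts. Read pairs became 419 and 213 with loops of 10 or more. With 1 start site per gene, MSRB3 had 11 distal anchors (8 of the 52) and 105 read pairs, and 6 anchors were linked to both. With start sites of coding transcripts only, chosen after seeing the data, these were 12, 115 and 7. Those settings left HMGA2 within 1.5-fold. The 2 kb window and spans of 20 kb to 1 Mb left every count within 1.5-fold. Scaled by chromosome 12, the folds against T-47D were at least 32.8 (MSRB3) and 15.7 (HMGA2), and against LNCaP at least 139 and 66.7. Scaled by chromosome 12 up to 73 Mb, they were at least 20.8, 9.95, 94.5 and 45.3. No paired analysis was possible because each line has 1 pooled list and no result comes from a test. At this depth, 3 read pairs are a scaled count of 2.88 for Ishikawa, 8.54 for T-47D and 1.66 for LNCaP, so weaker contacts were not detectable.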

Other observations

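Read pairs that joined an anchor to itself are not loops and were left out of every count above. In Ishikawa they numbered 16, 89, 0 and 27 at the first to the fourth MSRB3 anchor and 47 at the HMGA2 anchor, so that the second MSRB3 anchor led by this measure as well. In T-47D the same positions had 0, and the LNCaP list held no such pairs at all.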
